A study of Homo sapiens with 3 samples.

Results

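The genes described here are the transcriptional targets of the tumour suppressor p53 that stop the cell cycle, kill cells, repair DNA or restrain p53 itself, together with the inhibitors of cyclin-dependent kinases and other growth arrest genes. The list named 42 genes by symbol and was drawn up with earlier results of these data known. Features, the spots of the array, were taken where the platform annotation gave exactly 1 symbol, which found 104 features for 38 of the 42 genes. The features of a gene were averaged on each array, and 30 of the 42 genes had a value on all 3 arrays, out of 12550 genes that did so in the whole series. BTG2, CDKN2C, FDXR and TP63 had no feature by this rule and were not analysed here. PLK2, PLK3, PERP, RRM2B, CCNG1 and TIGAR had a value on 2 arrays, and PPM1D and SESN2 on 1 array.

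The cells were MCF10A, an immortalised, non-tumorigenic line of human breast epithelium. One culture stably expressed an shRNA against obscurin, a giant protein of the cytoskeleton, and the other a scrambled control shRNA, both kept under 1.5 ug/mL puromycin. Both were 70% confluent when etoposide, which traps topoisomerase II on cut DNA and so leaves breaks, was added at 150 uM for 48 hours. On each of 3 arrays, called independent replicates by the labels, cDNA of the obscurin shRNA cells (Cy5) was hybridised together with cDNA of the control shRNA cells (Cy3). Since both cultures had received etoposide, the ratios compare 2 drug-treated cultures and hold no measure of how far the drug itself moved a p53 target. The dyes were not swapped, so a dye effect and the shRNA cannot be told apart. Whether each line was a clone or a pool, and whether the replicates were separate cultures, is not given in the sources used here, so p-values measure only the spread between these arrays.

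As background, p53 is held low by MDM2, a ubiquitin ligase that p53 itself induces, and is stabilised when kinases report DNA breaks. It then binds DNA as a tetramer at paired half-sites and induces genes that arrest the cycle, such as CDKN1A (p21), genes of apoptosis, such as BBC3 (PUMA) and PMAIP1 (NOXA), and genes of nucleotide excision repair, such as XPC and DDB2. MCF10A cells are known to have lost the chromosomal segment with CDKN2A and CDKN2B.

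The windows from 250 bases before to 50 bases after each RefSeq gene start (GRCh38.p14) were searched on both strands for the p53 half-site consensus. This palindromic motif of 10 letters is given here by its name alone. Windows were at hand for 37 of the 42 members, 54 windows in all, since some genes have several starts. The motif was found in the windows of 5 of 37 members (13.5%), against 8.06% of all 27305 genes. Most members thus had no match in these windows, and FDXR, which had one, was not measured here. The stretches that hold it are printed 5′ to 3′ on the gene's strand, with the half-sites in capitals.
DDB2 (chr11:47214974-47215003, + strand): ggtttGAACAAGCCCtGGGCATGTTTggcg
AEN (chr15:88621296-88621325, + strand): agtcggagccGGGCTTGCCCgggcatgtgg
SESN1 (chr6:109009018-109009047, - strand): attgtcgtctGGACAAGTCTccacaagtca
PLK2 (chr5:58460199-58460228, - strand): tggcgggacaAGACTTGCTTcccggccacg
FDXR (chr17:74872986-74873015, - strand): gggcaggagcGGGCTTGCCCtgcggagcag
DDB2 was the 1 member with 2 half-sites, 1 base apart, an arrangement with up to 13 bases between them that 10 of all 35116 windows held. A match is a description of the letters. Sites farther away, such as the known upstream sites of CDKN1A, lie outside these windows.

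Values below are log2 ratios, read as Cy5 over Cy3, so likely the obscurin shRNA culture over its control, relative to each array's median over all features (1.49, 1.28 and 1.39 as deposited). A value below 0 therefore means a ratio lower than that of the middle feature of the array, not a ratio below 1. The zero point is not a neutral one. On every array the values had a narrow peak around the most repeated value, which lay 0.58, 0.69 and 0.61 above the median, and a second peak between -3.0 and -2.5. Tested genes had a median of -0.61, and 68.4% of them had a mean below 0. Features were also not firmly tied to their names. The deposited order of features was compared with the annotation through 235 transcripts with at least 10 features each. Their features resembled each other better when values were taken from 1 feature row (170 features) earlier in 10 of 15 stretches, 5 stretches on each of 3 arrays, and better at their own place in 5. The intraclass correlation of ranks ran from -0.128 to 0.513 at the own place and from -0.142 to 0.449 at 1 row earlier. In stretch 3 of array 3 the better place had only 0.086, against 0.021. The better place therefore does not secure the gene names either. The gene names below are those at the own place, as the rule sets them, and how far the members' values moved at the better place of each stretch is given after them.

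Most p53 target and growth arrest genes lay below the array medians, on the same side as most genes. The 30 members had a median of -1.31, against -0.61 for all tested genes, and 23 of 30 (76.7%) had a mean below 0, against 68.4%. By array the median of the members was -1.32, -0.56 and -0.79, and that of all tested genes -0.47, -0.48 and -0.48. The distance between members and all genes was thus widest on array 1. No member passed an adjusted p of 0.05 in limma in either direction, and neither did any other gene (0.0% of 12550 above and 0.0% below). Without adjustment, 11 members with a p under 0.05 were below, against a share of 22.8% of all genes, and 0 were above, against 0.829%. On all 3 arrays 15 members were below the median, against 33.8% of all genes, and 5 were above, against 15.7%. Another 10 members had arrays on both sides. Without array 1, 8 members were above on both remaining arrays and the members' median was -0.88. The same values over all tested genes were not computed without array 1, and fewer arrays share a side more easily. This count therefore has no background to set it against.

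**Figure D1:**
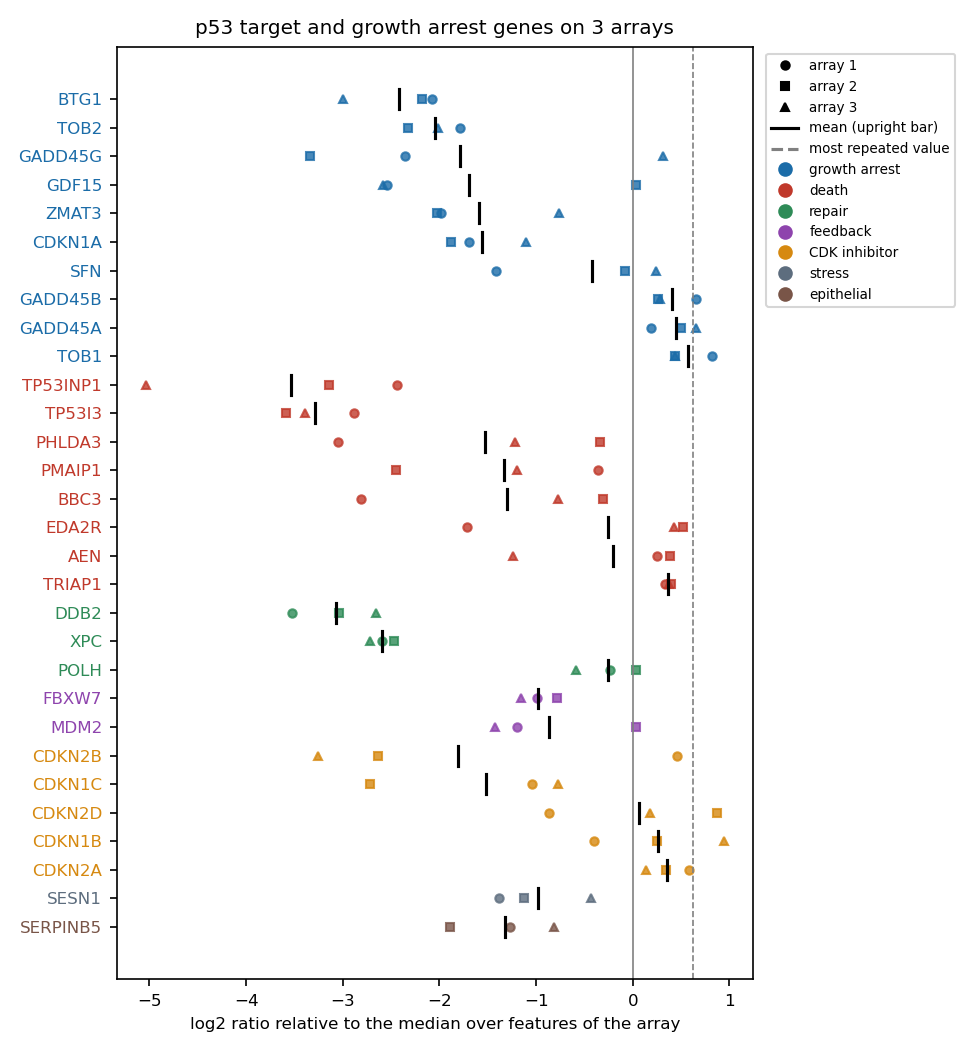
Log2 ratio of each of the 30 members relative to the array's median over features (x axis), 1 row per gene, coloured by role, with a symbol per array and an upright bar at the mean. The dashed line marks the most repeated value, averaged over arrays. TP53INP1, TP53I3, DDB2, XPC and BTG1 sit below -2 on all 3 arrays, while TOB1, GADD45A, GADD45B, CDKN2A and TRIAP1 sit near the dashed line on all 3.

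Some members lay under -2 on all arrays or near the most repeated value on all arrays, and 20 of 30 lay at neither place. Under -2 on all 3 arrays were 5 members, TP53INP1, TP53I3, DDB2, XPC and BTG1, or 16.7% of the 30, where 6.29% of all tested genes were. Within 0.5 of the most repeated value on all 3 arrays were another 5, TOB1, GADD45A, GADD45B, CDKN2A and TRIAP1, also 16.7%, where 8.02% of all tested genes were. Both limits were chosen after the values were seen. With each stretch at its better place, 6 of 32 members were under -2 on all arrays, against 6.96% of all genes, but 1 of 32 was within 0.5 of the most repeated value, against 7.94%. All 5 of the low genes were measured by 1 feature. Of the 13 members with 1 feature, these 5 (38.5%) were under -2 on all arrays, against 11.1% of the 5483 tested genes with 1 feature. Of the 17 members with several features 0 were, against 2.56% of the 7067 tested genes with several features.

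**Figure D2:**
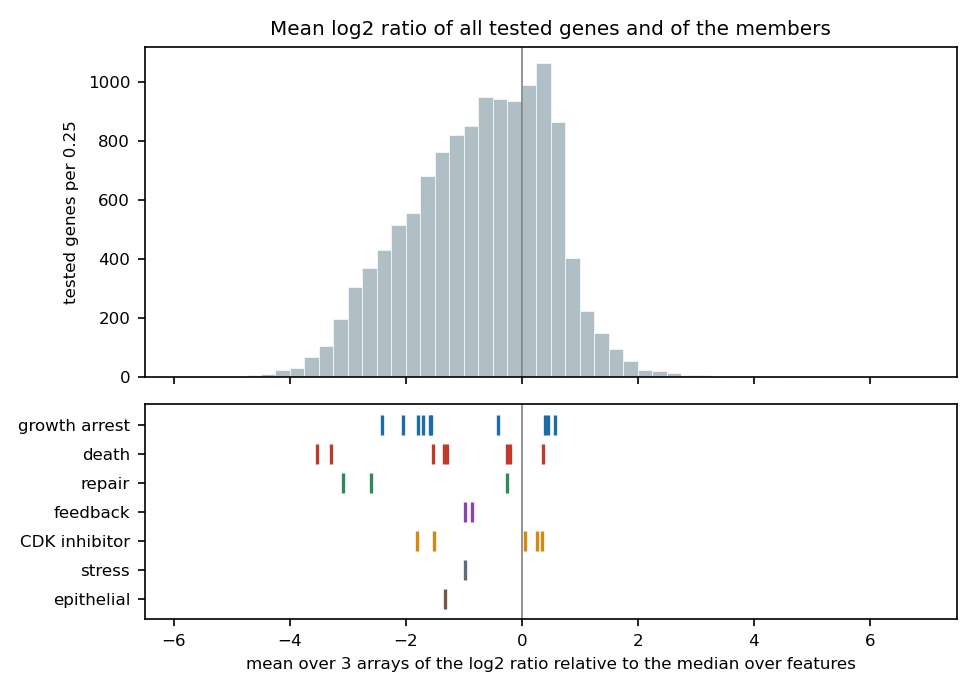
Upper panel, number of tested genes (y axis) per 0.25 of the mean log2 ratio over 3 arrays (x axis), relative to the median over features. Lower panel, the 30 members on the same x axis, 1 line per role and 1 tick per gene. Tested genes are most frequent between 0.25 and 0.5, and the members span -3.54 to 0.57.

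Among growth arrest genes, 10 of 13 were measured on all arrays, 7 below and 3 above, with a median of -1.57. CDKN1A, the CDK inhibitor p21 through which p53 blocks entry into S phase, averaged -1.69, -1.88 and -1.10 over its features on arrays 1, 2 and 3. Its mean was -1.56 ± 0.37 (limma SE, n = 3 arrays, as for all gene means below), on the same side on all 3 arrays and with a limma adjusted p of 0.102. BTG1, an antiproliferative partner of mRNA deadenylases, had the lowest mean of the group, with -2.08, -2.18 and -3.00 (mean -2.42 ± 0.39, limma adjusted p = 0.0557). It was low on all 3 arrays. ZMAT3, an RNA-binding p53 target, had -1.99, -2.02 and -0.77 (mean -1.59 ± 0.44). GDF15, a secreted stress cytokine, had -2.54 and -2.59 on arrays 1 and 3 but 0.03 on array 2 (mean -1.70 ± 0.69). SFN (14-3-3 sigma), which holds cyclin B1 complexes in the cytoplasm, had -1.41, -0.08 and 0.24 (mean -0.42 ± 0.48), so its arrays lay on both sides. PLK2, a polo-like kinase induced by p53, had 0.58 and 0.56 on arrays 2 and 3, and PLK3, its stress-responsive relative, 0.86 and 0.44 on arrays 1 and 2. Both kinases stood near the most repeated value on the arrays that measured them.

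Some relatives within a family had similar values and others did not. A difference between genes on the same array does not depend on the zero point. TOB1, an antiproliferative protein of the BTG family, had 0.82, 0.44 and 0.44 (mean 0.57 ± 0.34), the highest mean of the 30 members. TOB2, its closest relative, had -1.79, -2.33 and -2.02 (mean -2.04 ± 0.35). TOB1 thus exceeded TOB2 by 2.61, 2.76 and 2.46 on the 3 arrays, a difference of 2.61 ± 0.15 (SD, n = 3). An exact two-sided test on 3 arrays cannot go below p = 0.25, and none was run. With each stretch at its better place the difference was 3.10, 1.50 and -0.75, so it rested on the place at which the features were read.

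The GADD45 proteins, small stress sensors that bind MAP kinase kinases and cell cycle regulators, were likewise split. GADD45A, the p53-induced member, had 0.19, 0.50 and 0.65 (mean 0.45 ± 0.34), and GADD45B, better known from TGF-beta and NF-kB signalling, 0.66, 0.26 and 0.28 (mean 0.40 ± 0.34). These 2 genes differed by 0.04 ± 0.45 (SD, n = 3). GADD45G had -2.35, -3.34 and 0.32 (mean -1.79 ± 0.83), but its value on array 1 came from 1 feature and those on arrays 2 and 3 from another, so the 3 values are not the same measurement. At the better place GADD45A had 0.97 ± 0.53 and GADD45B -1.98 ± 0.39, and the pair then differed by 2.60, 2.70 and 3.54.

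Genes of p53-dependent death were the role with the 2 lowest members. Of 9 genes, 8 were measured on all arrays, 7 below and 1 above, with a median of -1.32 (-0.66 without array 1). TP53INP1, a stress protein of apoptosis and autophagy, had -2.44, -3.14 and -5.04, the lowest mean of all members (-3.54 ± 0.64, limma adjusted p = 0.0652). TP53I3 (PIG3), a quinone oxidoreductase that raises reactive oxygen species, had -2.88, -3.59 and -3.39 (mean -3.29 ± 0.36, limma adjusted p = 0.0524). Its 3 arrays were close together, and that adjusted p, shared with other genes, was the smallest in the table.

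The BH3-only proteins, which bind and neutralise pro-survival BCL2 proteins, differed from array to array. BBC3 had -2.81, -0.31 and -0.77 (mean -1.30 ± 0.63), and PMAIP1 -0.36, -2.45 and -1.20 (mean -1.33 ± 0.54). Each average was below 0 on all 3 arrays, with its lowest value on a different array. The 3 features of BBC3 were all below 0 on array 1 but opposed on the others. They had 0.70, -2.02 and 0.39 on array 2, and 0.30, -2.45 and -0.175 on array 3. PHLDA3, an inhibitor of AKT, had -3.05, -0.34 and -1.21 (mean -1.53 ± 0.65). AEN, an exonuclease that degrades DNA in apoptosis, had 0.25, 0.39 and -1.24 (mean -0.20 ± 0.49), and EDA2R, a death receptor of the TNF receptor superfamily, -1.71, 0.52 and 0.43 (mean -0.25 ± 0.61). For both genes 1 array stood apart from the other 2. TRIAP1, which restrains apoptosome activation and so opposes death, was the member above 0, with 0.34, 0.39 and 0.38 (mean 0.37 ± 0.33). Its SD over arrays, 0.03, was the smallest of the 30 members, at a value near the most repeated one. PERP, a desmosomal protein linked to p53-dependent death, had -2.78 and -4.83 on the 2 arrays that measured it.

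Repair genes had the lowest median of the roles with at least 3 measured genes, -2.60, from 3 of 4 genes. XPC, which recognises bulky DNA lesions, had -2.60, -2.47 and -2.72 (mean -2.60 ± 0.33, limma adjusted p = 0.0524). DDB2, the damage-binding partner of DDB1 and the gene printed above with 2 half-sites, had -3.52, -3.04 and -2.66 (mean -3.07 ± 0.37, limma adjusted p = 0.0524). Both were low on all 3 arrays. POLH, the translesion polymerase eta, differed from them as an average, with -0.23, 0.03 and -0.59 (mean -0.26 ± 0.35). Its 4 features were opposed, at 0.24, -2.41, 0.25 and 0.99 on array 1 and -3.65, 0.32, 0.64 and 0.35 on array 3. On array 2 the third had no value and the others had -0.77, 0.41 and 0.47. RRM2B, the p53-induced subunit of ribonucleotide reductase, had -1.12 and 0.75 on arrays 2 and 3, on both sides of the median. With genes measured on 2 arrays included, the median of the role was -1.43.

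Of the genes that feed back on p53, 2 of 4 were measured on all arrays. MDM2 averaged -1.20, 0.04 and -1.42 (mean -0.86 ± 0.46, limma adjusted p = 0.327), with array 2 apart from the other 2. FBXW7, the substrate receptor of an SCF ubiquitin ligase that degrades cyclin E and MYC, had -0.99, -0.79 and -1.16 (mean -0.98 ± 0.34). Its value on array 1 came from 1 feature, while arrays 2 and 3 averaged that feature (-2.09 and -2.45) with an opposed one (0.52 and 0.14). CCNG1 (cyclin G1), which recruits a phosphatase to MDM2, had -1.23 and -2.83 on arrays 1 and 2. PPM1D (WIP1), the phosphatase that switches off p53 and its kinases, had a value on array 3 only, 3.82, with no replicate check.

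The CDK inhibitors, which were added to the p53 targets as growth arrest genes, had the highest median of the 4 roles with at least 3 measured genes, 0.06, with 3 above and 2 below. CDKN1A, itself a CDK inhibitor with a mean of -1.56, was counted under growth arrest and is not in this median. CDKN2A and CDKN2B, whose locus the line is known to lack, are in it. This median was -0.35 without array 2 and -0.08 without array 3. CDKN1B (p27), an inhibitor set mainly by protein turnover, averaged -0.40, 0.25 and 0.94 (mean 0.26 ± 0.43). CDKN1C (p57), an imprinted relative, had -1.04, -2.72 and -0.77 (mean -1.51 ± 0.54). Against CDKN1A on the same array, CDKN1B was higher by 1.29, 2.13 and 2.04, a difference of 1.82 ± 0.46 (SD, n = 3). With each stretch at its better place that difference was 1.83. The 2 differences that involve CDKN1C did not stay alike: CDKN1B minus CDKN1C went from 1.78 to 0.44, and CDKN1C minus CDKN1A from 0.04 to 1.39. The 2 features of CDKN1C were opposed, at -2.72 and 0.63 on array 1 and at 1.31 and -2.85 on array 3. Its value on array 2 came from the first of them alone, so the 3 values are not the same measurement.

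Of the INK4 group, which inhibits CDK4 and CDK6, CDKN2A had 0.58, 0.34 and 0.14 (mean 0.35 ± 0.34) and CDKN2D (p19) -0.87, 0.88 and 0.18 (mean 0.06 ± 0.48). CDKN2B (p15) had 0.46 on array 1 and -2.64 and -3.26 on arrays 2 and 3 (mean -1.81 ± 0.87). CDKN2A lay within 0.5 of the most repeated value on all 3 arrays, and CDKN2B did so on array 1 only. For both genes the line is known to lack the locus, and no level of either channel was at hand to compare.

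The remaining members were few. SESN1, a sestrin that links p53 to control of mTORC1, had -1.38, -1.12 and -0.44 (mean -0.98 ± 0.38), and SESN2, its stress-induced relative, -1.17 on array 1. The 2 features of SESN1 were opposed, one at 0.16, 0.71 and 2.72 and the other at -2.93, -2.96 and -3.59, so its average described neither. TIGAR, a fructose bisphosphatase that lowers glycolysis, had -1.05 and 0.91 on arrays 2 and 3. SERPINB5 (maspin), an epithelial serpin and p53 target, had -1.27, -1.89 and -0.82 (mean -1.32 ± 0.40, limma adjusted p = 0.154). Its features were opposed too, at -2.70, -1.86 and 0.76 on array 1.

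For 5 members there were at least 10 features of 1 transcript, so the spread within an array could be seen. CDKN1A had 10 such features, of which 9, 9 and 10 had a value on arrays 1, 2 and 3. On array 1 they ran from -2.91 to -0.29 with a median of -2.04, on array 2 from -6.62 to -0.05 with a median of -1.49, and on array 3 from -3.27 to 0.78 with a median of -0.57. All 9 were below 0 on array 1 and on array 2, and 5 of 10 on array 3. MDM2 features ran from -2.88 to 0.72, from -1.40 to 2.77 and from -3.86 to 0.81, with 7 of 9, 5 of 9 and 5 of 7 below 0.

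PMAIP1 had the widest range, from -3.59 to 4.14 on array 1, with medians of 0.04, -2.91 and -0.85 on the 3 arrays. CDKN1B features had medians of 0.54, 0.52 and 0.54, the most even over arrays, although single features ran from -3.54 to 4.67. CDKN2A features had medians of 0.92, 0.62 and 0.28. Across these 5 genes the SD between features of 1 transcript on 1 array was 0.71 to 2.34, while the SD over all features of an array was 1.93 to 2.02. Repeated features of 1 transcript therefore differed about as much as features of different genes on several of these arrays. With each stretch at its better place that SD was lower in 10 of the 15 cases and higher in 5, at 0.39 to 1.92. The CDKN1A medians were then -2.45, -2.02 and -1.91, closer together than at the own place, and the CDKN1B medians 0.48, 0.52 and 0.44. These 5 transcripts belong to the 235 by which the better place was chosen.

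**Figure D3:**
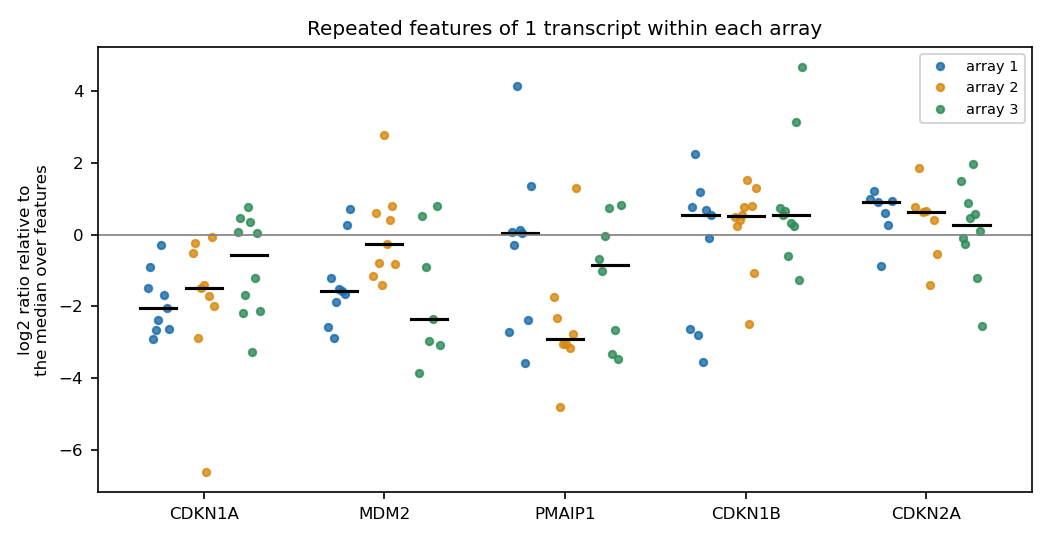
Log2 ratio relative to the array's median over features (y axis) of each repeated feature of 1 transcript for 5 members (x axis), coloured by array, with a bar at the median. CDKN1A features lie below 0 on arrays 1 and 2 but on both sides on array 3, and those of PMAIP1 on array 1 span -3.59 to 4.14.

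Where a value was read decided which members passed. With each stretch at its better place, 32 members had a value on all arrays, 26 of them below 0, with a median of -1.38 against -0.65 for all tested genes. On all 3 arrays 18 of the 32 were below, against 34.7% of all genes, and 2 above, against 16.1%. By limma, 6 members passed an adjusted p of 0.05 below, where 5.94% of 12451 genes did, and 0 above, where 0.0161% did. They were TP53I3 (-3.24 ± 0.37), PERP (-2.86 ± 0.33), CDKN2B (-2.78 ± 0.37), GDF15 (-2.71 ± 0.33), XPC (-2.56 ± 0.33) and RRM2B (-2.55 ± 0.33), each with an adjusted p of 0.0482, just inside the threshold. CDKN2B was among these 6 although the line is known to lack it. PERP and RRM2B, unmeasured on 1 array at the own place, had a value on all 3 here. TP53I3 and XPC lie in the first stretch, where arrays 2 and 3 were read at their own place in both settings, so their agreement between settings rests on array 1 alone. CDKN1A had -1.61 ± 0.33 and MDM2 -1.10 ± 0.34, within 1 SE of their values at the own place.

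Of the 28 members with a mean in both settings, 12 moved by more than 0.5. GADD45B went from 0.40 to -1.98 and SFN from -0.42 to -2.04, each below 0 on all 3 arrays at the better place. CDKN1C went from -1.51 to -0.21, ZMAT3 from -1.59 to -0.67 and FBXW7 from -0.98 to -0.23, toward 0. PHLDA3 went from -1.53 to -2.39, CDKN2B from -1.81 to -2.78 and GDF15 from -1.70 to -2.71, away from it. GADD45A moved from 0.45 to 0.97. SESN1 went from -0.98 to 0.75 and TOB1 from 0.57 to -0.33. For SESN1 the low feature had no value at the better place on arrays 1 and 3. The other feature hardly moved, from 0.16, 0.71 and 2.72 to -0.05, 0.71 and 2.72. The new mean of SESN1 thus reflects in large part which feature had a value. DDB2 had -3.52, -9.15 and -0.70 at the better place, where its mean was -4.46 ± 1.78. TP53INP1, the lowest member at the own place, had a value on 2 arrays there, -2.44 and -2.59. PLK2, measured on 2 arrays at the own place, had -2.19, -0.05 and 1.87 at the better place.

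**Figure D4:**
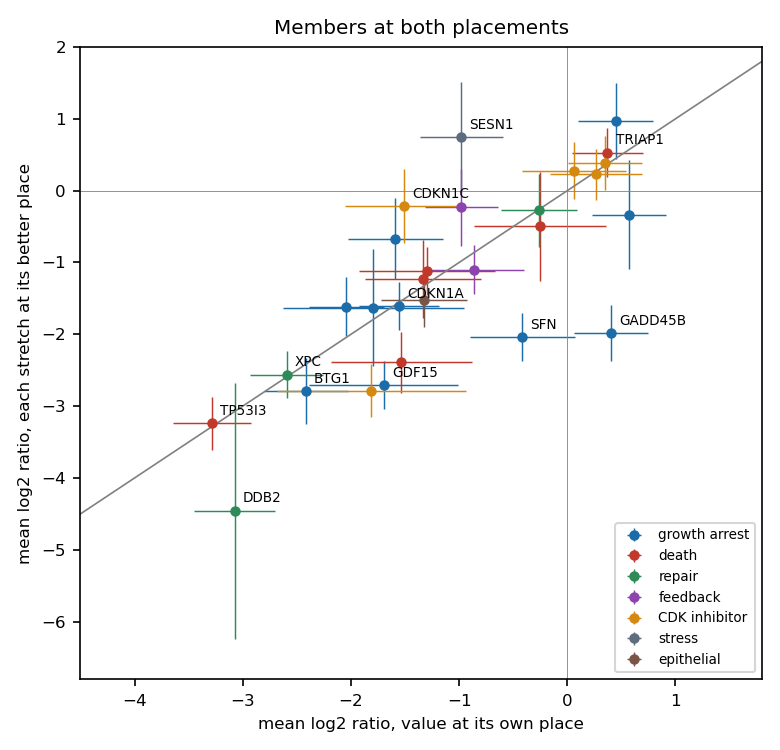
Mean log2 ratio of the members measured in both settings, with values at their own place (x axis) against each stretch at its better place (y axis), bars showing the limma SE and the diagonal showing equality. TP53I3, XPC and CDKN1A lie at the diagonal, while GADD45B and SFN lie more than 1.5 below it and SESN1 more than 1.5 above it. At the better place SESN1 had a value for only 1 of its 2 features on arrays 1 and 3.

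The zero point also decided the calls. With the most repeated value of each array as zero, 9 members passed an adjusted limma p of 0.05 below, where 17.2% of all genes did, and 0 above, where 0.0159% did. They were TP53INP1, TP53I3, DDB2, XPC, BTG1, TOB2, ZMAT3, CDKN1A and SERPINB5, with means from -4.16 to -1.95. As deposited, the members' median was 0.07 and 0 passed. Testing each feature on its own, at the median over features as zero point, 12 of 65 features of members passed below, where 11.9% of 16124 features did, and 0 above, where 0.0372% did. These 12 features belonged to 10 genes, with 2 each for CDKN1A and PMAIP1. TP53I3 and XPC were the 2 members that passed at the most repeated value, as single features and at the better place. Each has 1 feature, so its single-feature value is its gene value and adds no new measurement.

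A further list held other genes of the p53 pathway, namely upstream kinases, cofactors and further targets. Of 52, 37 were measured, with a median of -0.44 against -0.61 for all tested genes and -1.31 for the members. By limma 0 passed in either direction, 28 (75.7%) had a mean below 0, close to the 76.7% of the members and above the 68.4% of all tested genes. An unadjusted p under 0.05 was reached by 4 of the 37 below, against 22.8% of all genes, and by 0 above, against 0.829%. PPP1R13B (ASPP1), which directs p53 to death genes, had the lowest value, with -4.28, -1.96 and -2.33 (mean -2.86 ± 0.60). SESN3, the third sestrin, followed with 0.29, -3.68 and -1.45 (mean -1.62 ± 0.87). ANKRD11, a chromatin cofactor, had 2.00, 0.14 and 0.48 (mean 0.87 ± 0.52), and RPS27L, a ribosomal protein paralogue induced by p53, 0.13, -0.80 and 2.76 (mean 0.70 ± 0.82). The 3 arrays of each of these 4 genes were far apart.

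The ratios hold no levels, so the label of the cells could not be checked against expressed markers. Markers of basal mammary epithelium had ratios from -4.66 (LAMB3) to 1.72 (ITGB4) for 5 of 10 genes measured. Leukocyte markers ran from -4.18 to 0.64 (4 of 5 measured) and fibroblast markers from -0.51 to 0.96 (3 of 5). All 3 ranges overlapped that of the members, and their part in the result was not tested.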

How the data were processed

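Per the labels, both channels of an array were combined into 1 number per feature, and the deposited unit is a log2 ratio, judged from the values. For scanner, normalization, zero point and direction, no statement was found in the labels. Intensities of single channels were not used. The direction is likely Cy5 over Cy3. Features were named by the platform annotation (31332 with 1 symbol, 93 with several, 13795 with none), and 31291 were matched by Entrez identifier to the GRCh38.p14 RefSeq table, with 0 symbols changed. Each array was centred on its median over features and the features of a gene were averaged. Missing values were not imputed. A two-sided test of each gene mean against 0 used lmFit and eBayes of limma 3.58.1 (R 4.3.3), with p-values adjusted by Benjamini-Hochberg over 12550 genes. On simulated data with the real spread 0 of 200 genes shifted by 1 or by 2 on the log2 scale were recovered, and 58 of 200 shifted by 4. With a small simulated spread on 3 simulated arrays, 194 of 200 shifted by 1 were recovered, with 2 false calls. In the simulations all shifts were upward and all other genes had a true mean of 0. In these data 22.8% of genes were below at an unadjusted limma p under 0.05. The recovery rates therefore do not give the sensitivity of the test on these data. With the spread of these arrays, a count of 0 does not show absence of change. The better place of each of 5 stretches of 9044 features per array was the one with the higher intraclass correlation of ranks over repeated features.

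All members measured on 3 arrays are named. Members, lists, roles and tests were chosen with earlier results of these data known. The promoter search and the 2 limits on position in the distribution were added after the values were seen. The check of the gene targeted by the shRNA is not reported here.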

Additional observations from a re-analysis of the deposited data

How the results depend on the processing

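The results run under quantile normalization between arrays and with top values dropped kept their side. Robust eBayes was run for the counts past the threshold only, and these stayed at 0. Each tested value was a ratio of both cultures within an array, so the pairing by array was already used. No further pairing was possible, as there is 1 group of ratios. For genes and members past the threshold, leaving out any array gave 0. Over all genes, 2 above and 2161 below passed with the most repeated value as zero point, 2 and 740 with each stretch at its better place, and 6 and 1923 for single features. For members these were 9, 6 and 12 below. Members above the zero point on all arrays, 5 in the report, were 12 as deposited, 0 at the most repeated value, 2 read 1 row earlier, 2 at the better place and 5 to 8 with an array left out. Those below, 15, were 6 as deposited and 24 at the most repeated value. Apart from the setting of the report and the better place, no share over all genes was computed beside these counts of members on one side. They therefore do not set the members apart from other genes.

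The members' median of -1.31 was 0.073 as deposited, -0.83 centred on tested genes, -1.94 at the most repeated value, and -1.25 to -0.88 with an array left out. As deposited, the role medians were -0.19 for arrest, 0.068 for death, -1.21 for repair and 1.45 for CDK inhibitors. Repair genes had -2.12 centred on tested genes, -3.22 at the most repeated value and -1.43 with 2 arrays enough. CDK inhibitors had 0.54 centred on tested genes, -0.56 at the most repeated value, -0.15 read 1 row earlier, and -0.35 to 0.24 with an array left out. Other p53 pathway genes had 0.95 as deposited, 0.039 centred on tested genes and -1.06 at the most repeated value. Moves with the zero point are shifts by construction. For the other settings the cause was not tested.

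Single members changed sign as follows. As deposited, SFN had 0.97, BBC3 0.087, PMAIP1 0.050, AEN 1.18, EDA2R 1.13, POLH 1.12, MDM2 0.52, FBXW7 0.41, SESN1 0.40 and SERPINB5 0.060. Centred on tested genes, SFN had 0.061, AEN 0.28, EDA2R 0.22 and POLH 0.22. At the most repeated value, GADD45A had -0.18, GADD45B -0.22, TOB1 -0.056, TRIAP1 -0.25, CDKN1B -0.36, CDKN2A -0.27 and CDKN2D -0.56. Read 1 row earlier, GADD45B had -1.99, GADD45G 0.20, TOB1 -0.75, ZMAT3 0.49, POLH 0.11 and CDKN1B -0.081. At the better place, GADD45B had -1.98, TOB1 -0.33 and SESN1 0.75. With the median of features, POLH had 0.33. With an array left out, SFN ran from -0.74 to 0.082, AEN from -0.50 to 0.32, EDA2R from -0.64 to 0.48, CDKN1B from -0.076 to 0.60 and CDKN2D from -0.35 to 0.53.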
